A study of Mus musculus with 6 samples.

Results

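The replication-dependent histone genes were taken from the mm9 annotation (GENCODE M1) as every gene whose name starts with Hist1h, Hist2h or Hist3h, which gave 69 genes of 37310. By name, 6 encode histone H1, 20 H2A, 19 H2B, 12 H3 and 12 H4, and 66 of them are annotated as protein coding and 3 as pseudogenes (Hist1h2aj, Hist2h3c2 and Hist3h2bb-ps). H3K27ac, H3K4me3 and Pax5 had been profiled by ChIP-seq, 1 library each, in bone marrow pre-B cells of C57BL/6 mice of both sexes, 6 to 14 wk old, which lack RAG and carry a rearranged IgM transgene (RAG-/- µ+). These cells cannot rearrange their light chain genes, and the sources used here do not say how many mice went into a library. Each profile has an input sample, which was not analysed here. There is no second group and no replicate, so none of the differences below has a test, and all shares are descriptions of these 3 lists.

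Replication-dependent histone genes supply the histones that package newly copied DNA, and they are transcribed mainly in S phase, at nuclear sites called histone locus bodies. H2A, H2B, H3 and H4 form the core of the nucleosome, and H1 binds the linker DNA between nucleosomes. Their mRNAs carry no poly(A) tail and end in a stem-loop that is bound by SLBP, the stem-loop binding protein. Early pre-B cells proliferate before they rearrange their light chain genes. H3K27ac marks active promoters and enhancers, H3K4me3 marks active promoters, and Pax5 is the transcription factor that maintains B cell identity.

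The H3K27ac list held 69345 peaks and the Pax5 list 15445 peaks, each with a score from the peak caller whose scale the files do not name. Scores were therefore compared only within a list. The H3K4me3 list held 782636 bins of 25 bp without a score, which were joined across gaps of up to 100 bp into 17979 regions. Reads behind a peak are not given in any of the lists, and the sequencing depth is thus unknown. Of 8 B cell genes, each had an H3K27ac peak and a Pax5 peak within 1 kb of its start, and all but Igll1 had an H3K4me3 region. Of 6 genes of other cells (Cd3e, Lyz2, Gata1, Alb, Myod1 and Neurod1), 5 had no row of any list. At Lyz2, a myeloid gene, lay 3 H3K27ac peaks, with 14.1 as the highest score, and 2 H3K4me3 regions of at most 75 bp.

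The promoters and transcript ends of a few members are shown first, with the features that were searched in all members. All are read from the mm9 reference (NCBIM37) and written 5′ to 3′. The stem-loop was searched by its 16-base consensus on the strand of the gene, in the 300 bp after the last coding base (after the end of the gene for members without a coding part). It was found behind 59 of 69 members (85.5%), against 0.273% of 22380 protein-coding genes. Outside the members, H2afx, Hist4h4 and 1700014N06Rik were the only protein-coding genes with it. Its 16 bases came in 5 forms, of which 1 example each is given, with the stem-loop in capitals.
Hist3h2ba, chr11:58762846-58762875, plus strand: ccaaaGGCTCTTTTCAGAGCCaccttccaa
Hist1h2bl, chr13:21807578-21807607, minus strand: tcaaaGGCTCTTTTAAGAGCCacccacact
Hist1h4k, chr13:21842010-21842039, minus strand: caaaaGGCCCTTTTCAGGGCCacccactta
Hist1h4i, chr13:22132826-22132855, minus strand: ttaaaGGCCCTTTTTAGGGCCaccacaaaa
Hist2h2ac, chr3:96024332-96024361, minus strand: aaaaaGGCTCTTTTTAGAGCCaccaaatct
The form of Hist3h2ba was found at 40 members and that of Hist1h2bl at 9, none of them an H4 gene. The forms of Hist1h4k (7 members) and Hist1h4i (2 members), whose stems are richer in C and G, were found only at H4 genes, and that of Hist2h2ac at this gene alone. The 10 members without a match were Hist1h2aj, Hist1h4j, Hist1h2an, Hist1h3g, Hist1h4b, Hist1h4a, Hist1h2al, Hist2h2be, Hist2h3c2 and Hist2h2bb. A missing match says only that these letters are not in the searched stretch.

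In the 300 bp from 250 bp before to 50 bp after each start, 4 motifs known from histone promoters were searched. CCAAT, on both strands, was found at 59 members (85.5%), against 37.9% of protein-coding genes. TATAAA, on the strand of the gene, was found at 31 members (44.9%), against 9.04%. ATTTGCAT on both strands, the octamer that OCT1 binds in H2B promoters, was found at 16 members (23.2%), against 1.72%. Of the 16, 9 are H2B and 7 H2A genes. Except for Hist1h2ab, each of these H2A genes points away from one of these H2B genes, with starts 173 to 306 bp apart. The searched stretches of such a pair overlap, so the same octamer is counted for both genes, and CCAAT can be as well. GGTCCG on both strands, an element of H4 promoters, was found at 14 members (20.3%), against 9.77%, and 11 of the 14 are H4 genes. Of the 12 H4 genes only 4 had CCAAT and none had the octamer. None of these motifs contains another. Of the 31 members with TATAAA, the 29 with an H3K27ac peak had a median score of 102. The 38 without TATAAA, all with a peak, had a median of 79.1. Pax5 was present at 25 of 31 and 31 of 38. The median GC content of this stretch was 46.0% in the members and 55.0% in protein-coding genes, and 62 members (89.9%) had no intron in any annotated transcript, against 12.8%. The stretches below show these motifs in capitals, on either strand, except that TATAAA is marked only on the strand of the gene where a single gene is shown. They are a somatic H2A and H2B pair and the germ cell pair, from start to start (the germ cell pair up to 300 bp), and the 200 bp before the start of an H4 gene, a somatic and a germ cell H1 gene and an H3 gene.
Hist1h2ae to Hist1h2bg, chr13:23663090-23663264, plus strand: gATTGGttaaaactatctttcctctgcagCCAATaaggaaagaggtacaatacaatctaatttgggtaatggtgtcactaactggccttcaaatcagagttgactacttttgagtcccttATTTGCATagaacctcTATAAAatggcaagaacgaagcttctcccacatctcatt
Hist1h2ba to Hist1h2aa, chr13:24026026-24026325, plus strand: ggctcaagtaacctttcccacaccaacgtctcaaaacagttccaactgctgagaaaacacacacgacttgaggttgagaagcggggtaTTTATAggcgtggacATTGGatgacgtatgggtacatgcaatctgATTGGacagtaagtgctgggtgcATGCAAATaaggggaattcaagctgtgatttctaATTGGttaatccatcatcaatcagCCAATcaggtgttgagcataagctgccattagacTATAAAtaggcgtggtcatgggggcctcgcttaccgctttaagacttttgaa
Hist1h4d, chr13:23673267-23673466, plus strand: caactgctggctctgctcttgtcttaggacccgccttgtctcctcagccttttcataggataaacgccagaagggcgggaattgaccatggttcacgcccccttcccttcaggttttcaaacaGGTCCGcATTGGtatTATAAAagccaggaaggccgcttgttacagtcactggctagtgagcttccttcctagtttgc
Hist1h1c, chr13:23830476-23830675, plus strand: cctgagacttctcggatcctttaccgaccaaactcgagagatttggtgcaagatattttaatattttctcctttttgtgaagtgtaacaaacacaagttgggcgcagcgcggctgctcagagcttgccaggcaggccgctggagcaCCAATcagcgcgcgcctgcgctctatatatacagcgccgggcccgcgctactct
Hist1h1t, chr13:23787480-23787679, plus strand: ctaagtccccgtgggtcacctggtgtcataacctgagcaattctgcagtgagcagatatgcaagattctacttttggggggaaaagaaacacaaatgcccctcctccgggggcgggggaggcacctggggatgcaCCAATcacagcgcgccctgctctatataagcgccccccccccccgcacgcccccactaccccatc
Hist1h3c, chr13:23837472-23837671, minus strand: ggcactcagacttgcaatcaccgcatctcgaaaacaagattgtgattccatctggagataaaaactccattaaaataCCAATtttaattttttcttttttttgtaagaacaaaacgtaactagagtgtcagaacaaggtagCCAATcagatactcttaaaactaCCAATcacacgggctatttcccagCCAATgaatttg
Hist1h2ba and Hist1h2aa, which encode the testis H2B and H2A, thus carry the octamer and the CCAAT box like the somatic pair. Both also have TATAAA on their own strand, whereas in the somatic pair only Hist1h2bg does. Hist1h1t, the testis H1, has a CCAAT box like Hist1h1c. The lists at these genes differed and are given below.

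An H3K27ac peak lay within 1 kb of the start of 67 of the 69 members (97.1%), against 46.2% of protein-coding genes and 33.1% of all annotated genes. An H3K4me3 region did so at 61 members (88.4%), against 50.6% and 34.6%, and a Pax5 peak at 56 members (81.2%), against 35.7% and 24.5%. All 3 lists were present at 51 members (73.9%, against 32.6%) and none at 2 members (2.90%, against 45.9%). The remaining members had both histone marks without Pax5 (10), H3K27ac and Pax5 without H3K4me3 (5), or H3K27ac alone (1). No member had H3K4me3 or Pax5 without H3K27ac. Among protein-coding genes with both histone marks, 75.5% had a Pax5 peak, and among the 61 members with both marks 51 did (83.6%). The share of members with Pax5 was thus nearer to that of other promoters with both marks than to that of all genes. Ribosomal protein genes, taken by name, had H3K27ac at 85 of 144 (59.0%), H3K4me3 at 84 (58.3%) and Pax5 at 71 (49.3%). That set also holds kinases and many genes named as pseudogenes, such as Rpl21-ps3 and Rps19-ps1, and 57 of the 144 had no list. Its values, here and below, are therefore not those of active ribosomal protein genes alone.

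**Figure D1:**
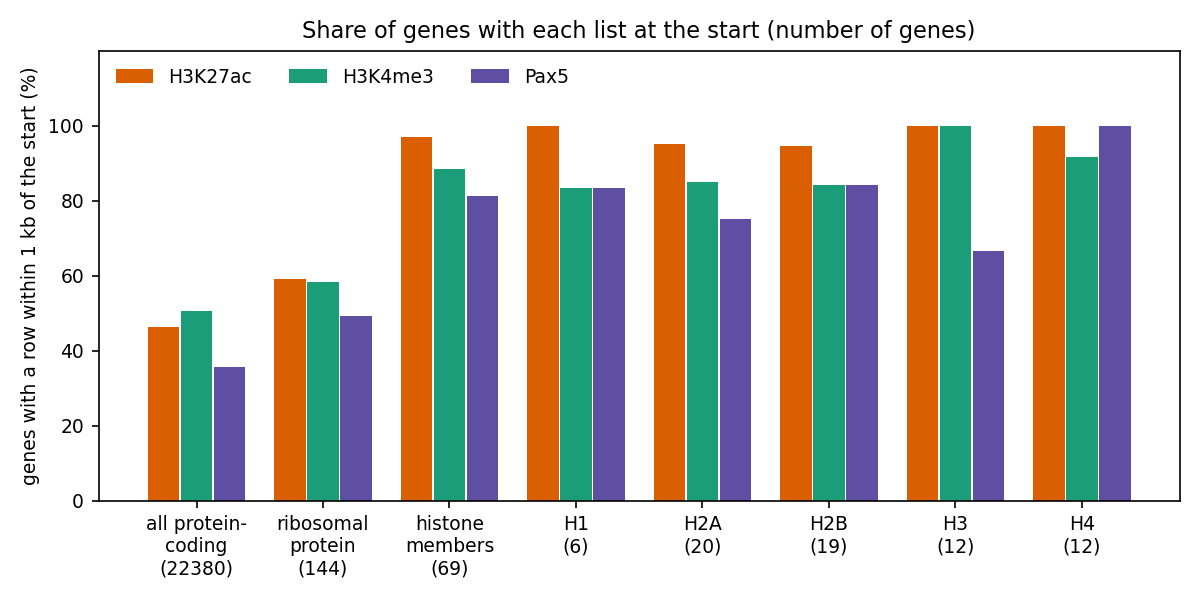
The bars give the percent of genes with an H3K27ac peak, an H3K4me3 region or a Pax5 peak within 1 kb of the start, for all protein-coding genes, ribosomal protein genes, all 69 members and the members of each histone type, with the number of genes in brackets. The 3 bars of the members are at 97.1%, 88.4% and 81.2%, and Pax5 ranges from 66.7% in H3 to 100% in H4.

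Members share peaks, since their starts lie close together. The 67 members with H3K27ac were reached by 68 different peaks, the 61 with H3K4me3 by 50 regions and the 56 with Pax5 by 34 peaks. An H3K27ac peak of 3519 bp (chr13:23662898-23666416, score 81.9) lay at 4 genes, Hist1h2ae, Hist1h2bg, Hist1h2bf and Hist1h2ad. The widest H3K4me3 region, of 3525 bp (chr13:21806821-21810345), reached Hist1h2bl, Hist1h2ai and Hist1h3h. On chromosome 3, an H3K4me3 region of 3400 bp (chr3:96022869-96026268) and a Pax5 peak of 2952 bp (chr3:96023085-96026036, score 540.3) each reached Hist2h2ab, Hist2h2ac and Hist2h2be. There were 14 pairs of members on opposite strands that point away from each other with starts 168 to 693 bp apart (median 228 bp), 13 of an H2A and an H2B gene and 1 of Hist1h2bh and Hist1h3f. With each pair counted once, H3K27ac was present at 54 of 55 units, H3K4me3 at 50 and Pax5 at 44. The peaks at members were also wide, with a median of 1377 bp for H3K27ac (428 bp in the whole list) and 1570 bp for Pax5 (965 bp in the whole list). The whole list also holds peaks away from gene starts, and a wide peak reaches a window more easily. Widths at other gene starts were not computed, so this is not shown to be particular to histone genes.

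The H3K27ac peaks at members were among the highest in the list. The highest score within 1 kb of a start ran from 24.6 to 233 among the 67 members, with a median of 84.8, while the median over the protein-coding genes with a peak was 31.6. A peak from the highest-scoring 1% of the list (693 peaks) lay at 26 members (37.7%), against 2.84% of protein-coding genes and 4.86% of ribosomal protein genes. These shares are over all genes, with or without a peak. Of the genes with any H3K27ac peak, it was 26 of 67 members, 635 of 10338 protein-coding genes and 7 of 85 ribosomal protein genes. These 26 members were reached by 15 different peaks. Of the highest-scoring 10%, 66 members (95.7%) had a peak, against 20.5% of protein-coding genes (4592, of the 10338 with any peak). The highest scores were at Hist2h2aa1 and Hist2h3c1, which share a peak with a score of 233 (rank 19), and at Hist2h2aa2 and Hist2h3c2, which share one with a score of 232 (rank 21). They were followed by Hist1h2bq, Hist1h2ao and Hist1h4m with a shared score of 171 (rank 75). The annotated starts of Hist2h2aa1 and Hist2h3c1 lie side by side on the plus strand (chr3:96049461 and chr3:96049477). All values and motifs of Hist2h3c1, counted as an H3 gene, are thus those at the Hist2h2aa1 start. The lowest scores were 24.6 at Hist3h2ba, 39.8 at Hist1h3d and 41.0 at Hist1h4b. Only Hist3h2ba lay below the highest-scoring 10% of the list, apart from the 2 members without a peak.

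**Figure D2:**
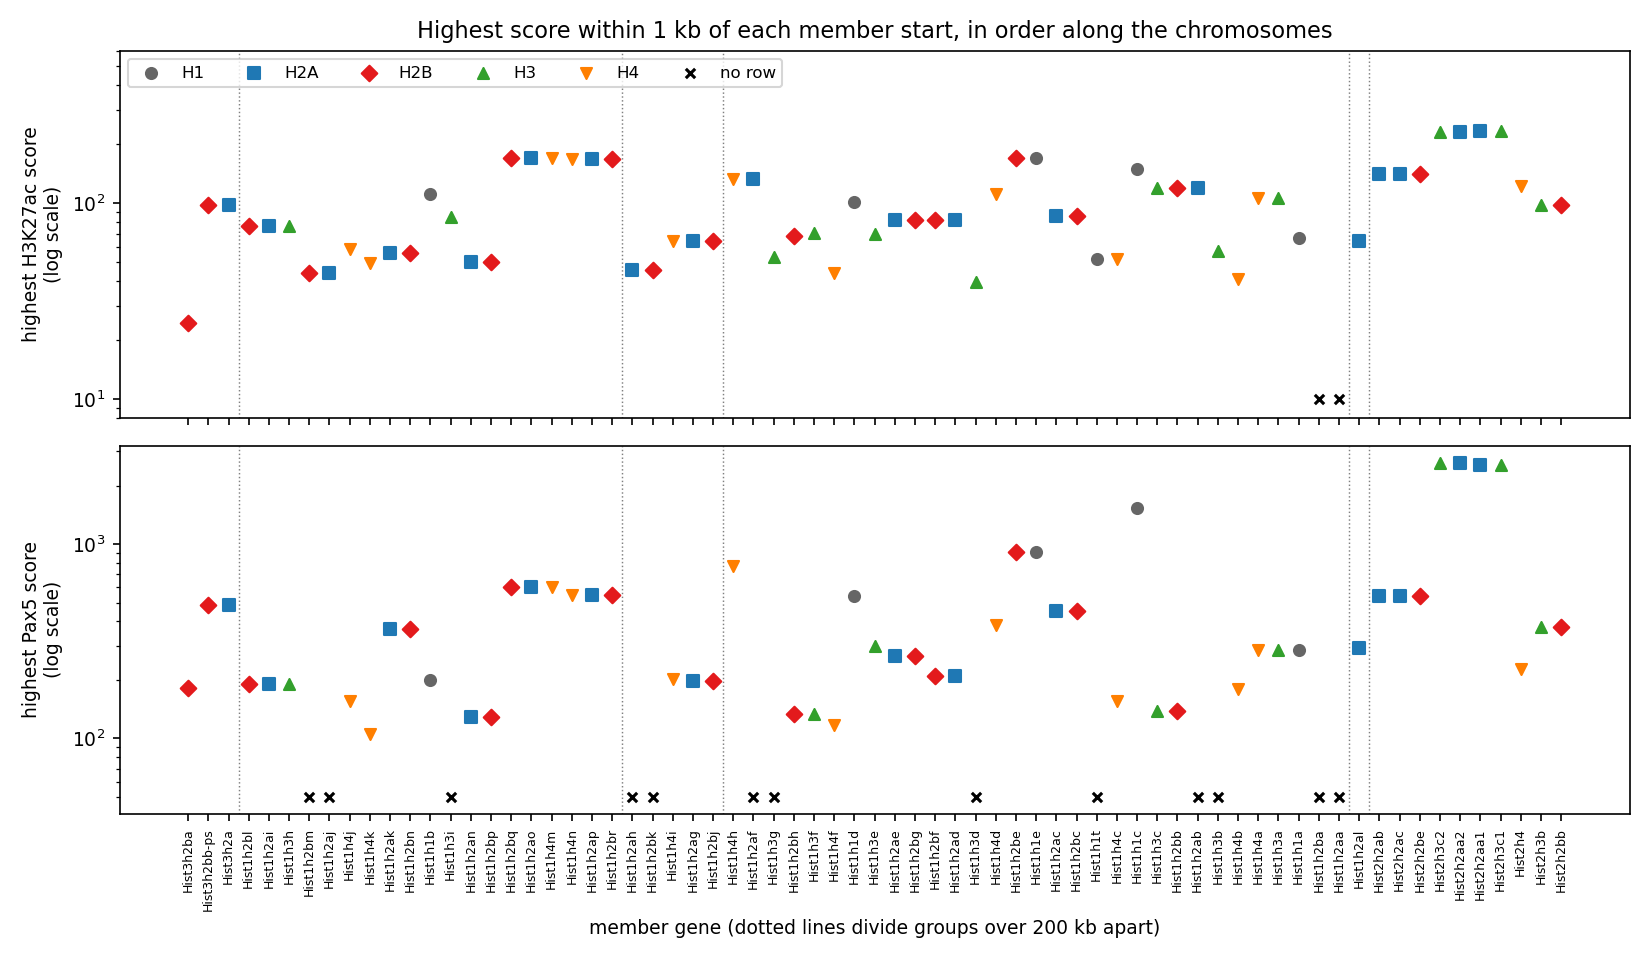
The upper panel gives the highest H3K27ac score and the lower panel the highest Pax5 score within 1 kb of each of the 69 members, on log scales, in order along the chromosomes. Symbols mark the histone type, crosses at the foot mark members without a peak, and dotted lines divide groups of starts over 200 kb apart. Members that share a peak have the same value, and the 4 highest in both panels are the genes of the Hist2 copies.

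Pax5 scores at the 56 members with a peak ran from 105 to 2622 with a median of 295, against a median of 267 over the protein-coding genes with a Pax5 peak. The Pax5 peak of Hist2h2aa2 and Hist2h3c2 had a score of 2622 (rank 12 of 15445) and that of Hist2h2aa1 and Hist2h3c1 2561 (rank 13). The highest score at a member outside these copies was 1530 (rank 182), at Hist1h1c, a somatic H1 gene. Hist1h2be and Hist1h1e shared a peak with a score of 906 (rank 842), which covers both starts. The annotated start of Hist1h2be lies beside Hist1h1e, 37.4 kb from its other end. At the other end of Hist1h2be lay a Pax5 peak with a score of 232 and an H3K27ac peak with a score of 111. The lowest Pax5 scores were 105 at Hist1h4k, 117 at Hist1h4f and 129 at the pair Hist1h2an and Hist1h2bp. Thus the range of Pax5 scores among members was wide, and their median was near that of other bound promoters.

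The letters GCNTGAC, the core of the Pax5 recognition sequence, were searched on both strands in the 300 bp around the midpoint of each Pax5 peak. They were found in 4 of the 34 peaks at members (11.8%) and in 18.4% of all 15445 Pax5 peaks. The peaks at members are wider (median 1570 bp against 965 bp), so the searched 300 bp are a smaller part of them. The 4 sites are given with the core in capitals, named by the members that the peak reaches.
Hist1h2bl, Hist1h2ai, Hist1h3h, chr13:21808578-21808606, plus strand: gctgctgggccGCGTGACcatcgcgcagg
Hist1h4h, chr13:23623041-23623069, plus strand: cgcaaagtgctGCGTGACaacatccaggg
Hist2h3c2 and Hist2h2aa2, chr3:96043419-96043447, minus strand: agcgtccacccGCCTGACccttcccagga
Hist2h2aa1 and Hist2h3c1, chr3:96050226-96050254, plus strand: agcgtccacccGCCTGACccttcccagga
The 2 sites in the Hist2 copies have the same 29 bases. The site of Hist1h4h and that of the peak at Hist1h2bl lie within the annotated Hist1h4h and Hist1h2ai genes. The search covers only exact matches to these letters in this stretch, so it says nothing on whether Pax5 binds the other 30 peaks.

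By histone type, all 12 H4 genes had a Pax5 peak, against 8 of 12 H3 genes, 15 of 20 H2A genes, 16 of 19 H2B genes and 5 of 6 H1 genes. The H4 genes had lower Pax5 scores, with a median of 215 and a range of 105 to 775, while the median was 538 at H1, 453 at H2A, 316 at H2B and 291 at H3 genes. These ranges overlapped, and shared peaks count in several types. H3K27ac was found at all H1, H3 and H4 genes, at 19 H2A and at 18 H2B genes, and its median score was 107 at H1 genes and between 80.5 and 86.2 at the others. H3K4me3 was found at all 12 H3 genes, 11 H4, 5 H1, 17 H2A and 16 H2B genes. The 3 pseudogenes had H3K27ac and H3K4me3, and all but Hist1h2aj had Pax5. The highest H3K27ac peak at each, and the Pax5 peak where present, also reached a coding member. These coding members were Hist3h2a for Hist3h2bb-ps, Hist1h2bm for Hist1h2aj and Hist2h2aa2 for Hist2h3c2. The annotated start of Hist1h2aj lies inside the Hist1h2bm gene. These peaks can thus not be assigned to the pseudogenes themselves.

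The position of Pax5 along the genes is given by type as a description. At H1 genes, the midpoint of the nearest Pax5 peak was downstream of the start at 5 of 5 genes, with a median of 619 bp and a range of 51.0 to 842 bp. At H4 genes the median was -13.0 bp, with a range of -492 to 199 bp, where negative values are upstream. At H2B genes the midpoint was downstream in 3 of 16, and at H2A genes in 9 of 15. At H3 genes it was downstream in 5 of 8, with a median of 366 bp. These include Hist2h3c1, measured from a start beside that of Hist2h2aa1. A peak shared by an H2A and H2B pair counts for both genes. Of all protein-coding genes with a Pax5 peak, 59.3% had the midpoint downstream, at a median of 48.5 bp.

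The start itself lay inside an H3K27ac peak at 59 of the 67 members with such a peak (88.1%), whereas it did so at 45.3% of the protein-coding genes with one. Protein-coding genes often had peaks on both sides and none on the start (33.4%), and 6 members did (8.96%), of which 4 are H3 genes. A Pax5 peak covered the start of 53 of 56 members (94.6%) and of 91.6% of the protein-coding genes with one. An H3K4me3 region covered the start of 50 of 61 members (82.0%), against 90.1%. At 1000 bp before the start, 76.8% of the members were still in an H3K27ac peak, and at 1000 bp after it 91.3%, against 11.8% and 18.0% of protein-coding genes. At 2000 bp after the start, 44.9% of the members were in an H3K27ac peak, 20.3% in an H3K4me3 bin and 11.6% in a Pax5 peak. Within 500 bp of the start, the share of members in an H3K27ac peak was lowest at 175 bp after the start (60.9%), with another low of 72.5% at 425 bp before it, and it was 85.5% at the start itself. In protein-coding genes it was lowest at 50 bp before the start (20.3%). Other members often lie within these distances.

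**Figure D3:**
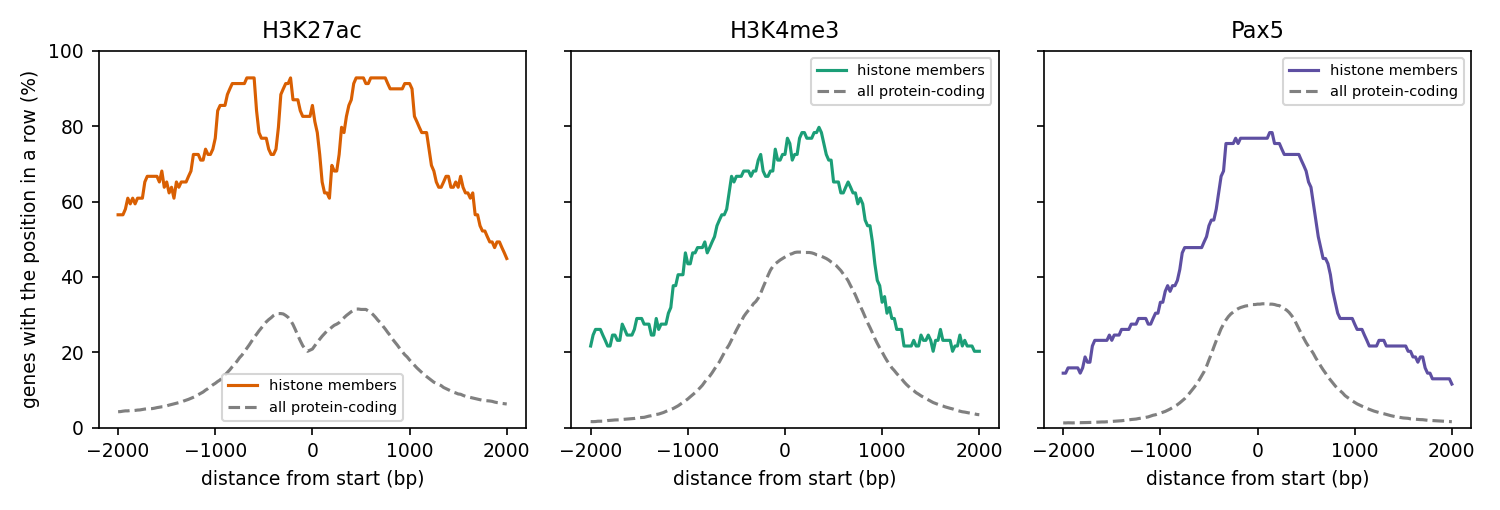
Each panel gives the percent of genes whose position at the given distance from the start lies in an H3K27ac peak, an H3K4me3 bin or a Pax5 peak, for the 69 members (solid) and all protein-coding genes (dashed). The members lie above the dashed line at every distance shown, and their H3K27ac line has a low of 60.9% at 175 bp after the start and another of 72.5% at 425 bp before it.

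The members lie in 6 groups of starts over 200 kb apart. The 10 Hist2h genes (chromosome 3, 49.8 kb) and the 3 Hist3h genes (chromosome 11, 5.77 kb) had all 3 lists at every member. Of the 56 Hist1h genes on chromosome 13, 54 had H3K27ac, 48 H3K4me3 and 43 Pax5. The first Hist1h group, 19 genes in 118 kb from Hist1h2bl to Hist1h2br, had H3K27ac at all, H3K4me3 at 14 and Pax5 at 16. The second, 5 genes in 7.57 kb, had both marks at all and Pax5 at 3. The third, 31 genes in 403 kb from Hist1h4h to Hist1h2aa, had H3K27ac at 29, H3K4me3 at 28 and Pax5 at 23. Hist1h2al lies alone, 27272 kb away, with an H3K27ac score of 64.6, an H3K4me3 region of 325 bp and a Pax5 score of 292. The median H3K27ac score was 140.4 in the Hist2h genes and 76.3 in the Hist1h genes, and the median Pax5 score 540.3 and 267. With 1 kb added on either side, H3K27ac peaks covered 30.5% of the first Hist1h group, 82.7% of the second, which is only 9.57 kb long, and 20.9% of the third. They covered 5.20% of the sequence between the first and the second group and 0.864% of that between the second and the third. The 405 kb of the third group include a long stretch without member starts, from Hist1h1a (chr13:23855537) to the germ cell pair (chr13:24026025). This stretch counts in its 20.9%.

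**Figure D4:**
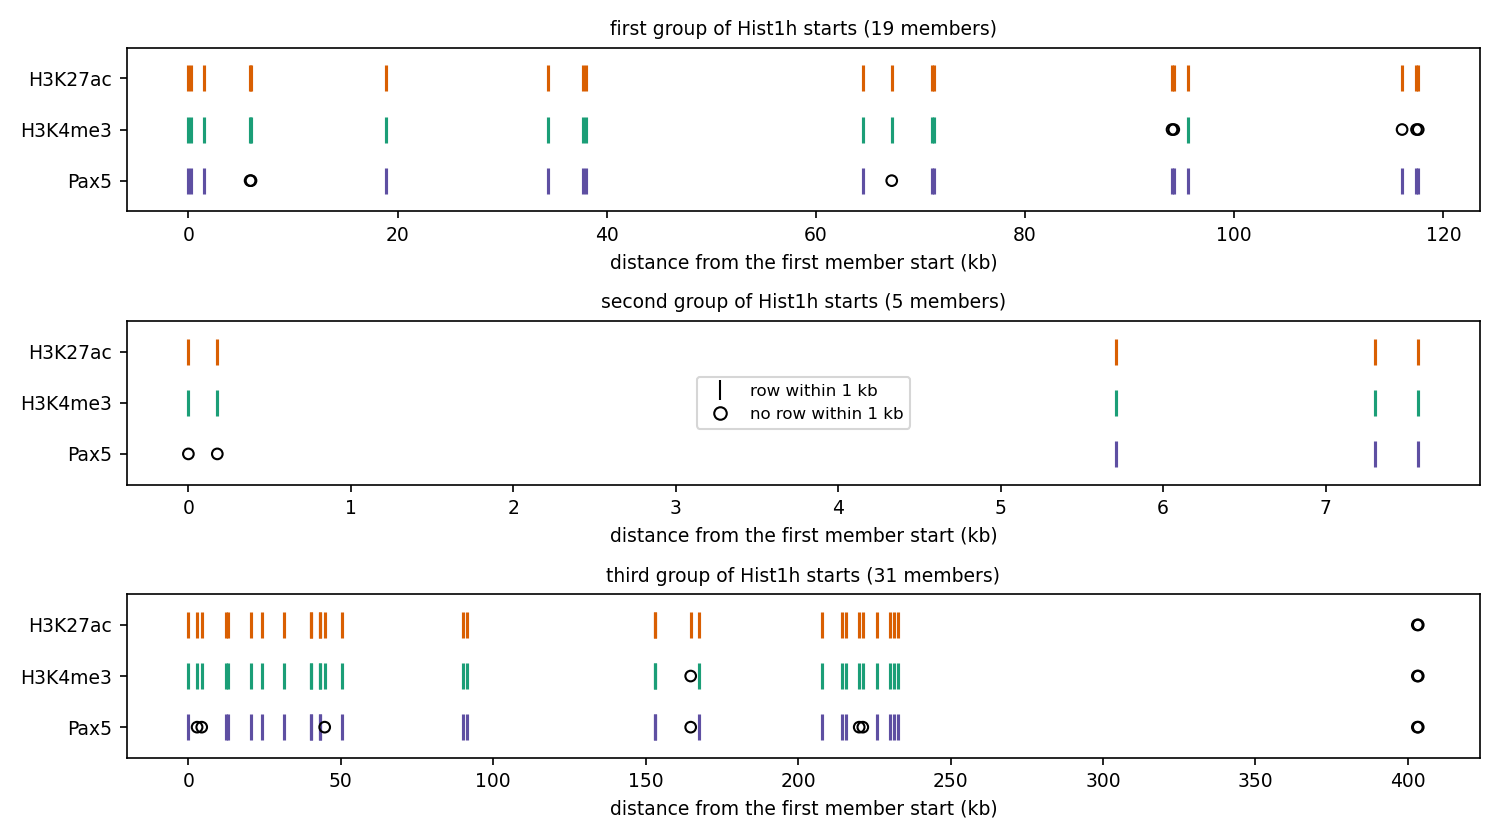
Each row of symbols is a list and each symbol a member start, in the 3 groups of Hist1h genes, by distance from the first start of the group. Coloured ticks mark members with a peak or region within 1 kb and open circles members without one. The open circles at the right end of the third group are Hist1h2ba and Hist1h2aa, which had no row of any list.

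Hist1h2ba and Hist1h2aa were the only members without any list. Hist1h1t, in the midst of the third group, had no H3K4me3 region and no Pax5 peak, and the H3K27ac peak that reached it (score 52.2, chr13:23787839-23790926) starts downstream of its start and also reaches Hist1h4c. Of the bases in its window, 842 of 2001 lay in that peak. All 3 are known as genes of the male germ line. Of the 32-base words within 1 kb of their starts, 89.3% at Hist1h2ba and Hist1h2aa and 100% at Hist1h1t occur once in the genome. The other members without a Pax5 peak, all with both histone marks, were Hist1h2bm, Hist1h2aj, Hist1h3i, Hist1h2ah, Hist1h2bk, Hist1h2af, Hist1h3g, Hist1h3d, Hist1h2ab and Hist1h3b. These 10 genes, of which 4 encode H3, had H3K27ac scores from 39.8 to 133. Both ends of this range are peaks shared with members that have Pax5. The peak of 39.8 at Hist1h3d also reaches Hist1h2bf and Hist1h2ad, and that of 133 at Hist1h2af also reaches Hist1h4h. The 120.3 at Hist1h2ab is a peak that also reaches Hist1h3c and Hist1h2bb, both with Pax5.

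Some histone genes are near-identical copies, and their reads can be placed at more than 1 copy. By the methods of the study, reads with more than 3 best positions were left out, but the submitters' notes name another Bowtie version, so this setting may not be that of the deposited lists. Over the members, a median of 73.9% of the 32-base words in the 2 kb window occur once in the genome and 83.8% at most 3 times, against 88.1% and 92.2% at ribosomal protein genes, 96.8% and 98.8% at histone genes outside the clusters, and 99.3% and 99.4% at 19 genes of histone mRNA processing and transcription. At 10 members under 50% of the words occur once. They belong to 2 sets of inverted copies, Hist1h2bq, Hist1h2ao and Hist1h4m with Hist1h4n, Hist1h2ap and Hist1h2br, and Hist2h2aa1 and Hist2h3c1 with Hist2h2aa2 and Hist2h3c2. The words of the window of Hist1h2bq were all found again at Hist1h2br, 23.5 kb away, and 58.5% of those of Hist2h2aa1 at Hist2h2aa2, 5.25 kb away.

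These 10 members had H3K27ac scores of 169 to 233 and Pax5 scores of 544 to 2622. Of the other members, only Hist1h2be and Hist1h1e, with a shared H3K27ac score of 171, reached that range of H3K27ac. In the Hist1h copies, the scores of the 2 sides were nearly equal, 171 and 169 for H3K27ac and 602 and 544 for Pax5. There, 5 of the 6 genes had no H3K4me3 region, and Hist1h4m had 1 of 150 bp. The Hist2 copies had H3K4me3 regions of up to 1150 bp. Words with 2 copies made up 39.8% to 75.1% of the words at the 10 members of the inverted copies. They made up at most 29.0% at any other member (Hist1h3e). The values of 2-copy words are thus in large part those of these same genes, not of members in general. Over all member windows, positions in words with 2 copies lay in a Pax5 peak in 80.7% and in an H3K4me3 bin in 31.8%. Positions in words with 1 copy did so in 48.5% and 64.0%. The corresponding values of H3K27ac were 89.2% and 88.7%. Words with 3 copies stood at 88.8% for Pax5 and 57.4% for H3K4me3. In words with more than 3 copies, H3K4me3 was higher than in single-copy words (70.2%), Pax5 was at 65.0% and H3K27ac at 64.8%, so cover did not move one way with the number of copies. The part of repeated sequence in these scores and in the missing H3K4me3 was not tested. Without the 10 members, H3K27ac was present at 57 of 59, H3K4me3 at 56 and Pax5 at 46, and 16 of the 59 (27.1%) had an H3K27ac peak of the highest-scoring 1%.

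**Figure D5:**
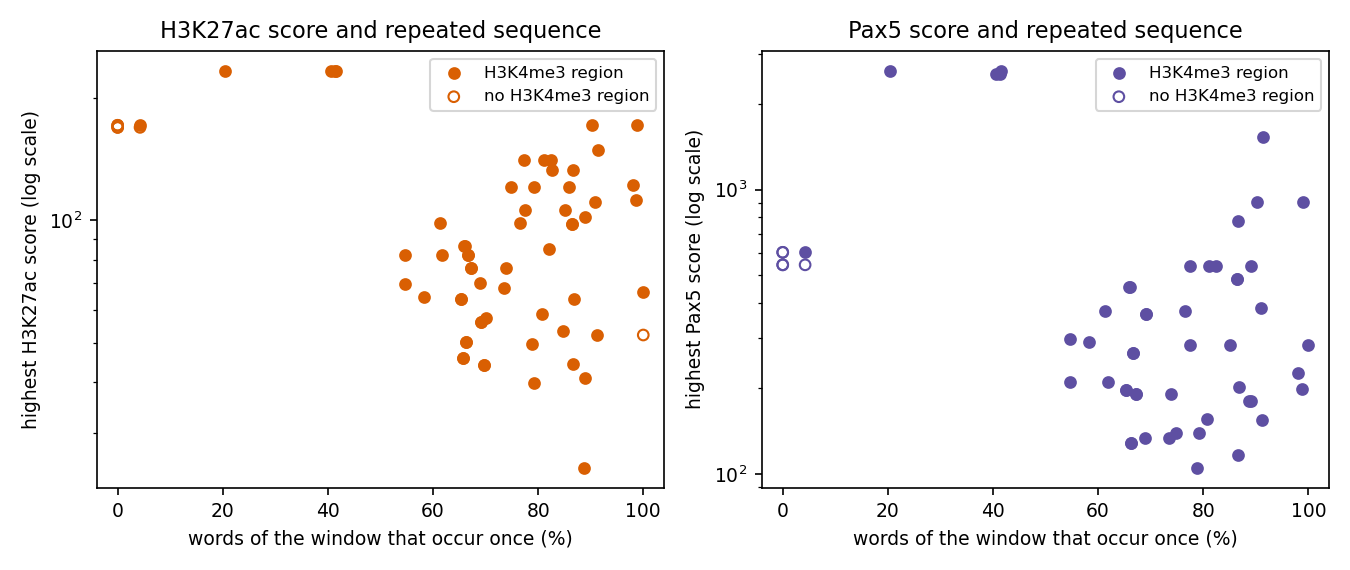
Each point is a member with a peak, by the percent of the 32-base words in its 2 kb window that occur once in the genome and by its highest H3K27ac (left) or Pax5 (right) score on a log scale. Open points have no H3K4me3 region, and the 10 points at the left of each panel, under 50%, are the members of the inverted copies.

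The genes that make, process and carry these histones were looked up as lists. Of all protein-coding genes, 46.2% had H3K27ac, 50.6% H3K4me3 and 35.7% Pax5, and of those with both marks 75.5% had Pax5. Of 19 genes of histone gene transcription and mRNA processing, 17 had H3K27ac (89.5%), 18 H3K4me3 (94.7%) and 16 Pax5 (84.2%). Slbp had a Pax5 score of 1517 and an H3K27ac score of 101, and Npat, the coactivator of histone genes, had 535 and 84.8. Lsm11, a part of the U7 snRNP that cuts the mRNA end, had Pax5 (1224) and H3K4me3 without H3K27ac, Srrt and Ccne1 had both marks without Pax5, and Zfp473 had no list. Of 8 histone chaperones all had both marks, and all but Chaf1a, a subunit of the assembly factor CAF-1, had Pax5 (87.5%). Of 16 histone genes outside the clusters, which are variant histone genes and Hist4h4, 10 had H3K27ac (62.5%), 11 H3K4me3 (68.8%) and 7 Pax5 (43.8%). None of the lists was present at H1foo, H1fnt, Hils1 and H2afb1, which are germ cell genes. H1fx and H2afy2 had H3K4me3 alone, and H3f3b had H3K27ac alone, with a score of 8.93. H2afx had all 3 lists, and Hist4h4, the lone H4 gene on chromosome 6, had an H3K27ac score of 152 and an H3K4me3 region of 1700 bp without Pax5.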

How the data were processed

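ChIP-seq lists for H3K27ac, H3K4me3 and Pax5 in pre-B cells were used as the authors deposited them. According to the methods of the study, duplicate reads were removed and the rest were aligned to mm9 with Bowtie, keeping those with up to 3 best positions. The submitters' processing notes name Bowtie 0.12.9 and MACS 1.4.2. The study's methods give another version of Bowtie, so their alignment settings may not apply to these lists. The score in the H3K27ac and Pax5 files is the peak caller's number as deposited by the authors, and its scale and threshold are not given in the sources used here. The H3K4me3 file that the authors deposited holds other values, namely bins of 25 bp without a score, and its caller is not given either.

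The start of a gene is the 5′ end of its GENCODE M1 record, and a peak counted when it overlapped the 1 kb on either side by at least 1 bp. Bins were joined across gaps of up to 100 bp. All peaks ended within the chromosomes of NCBIM37. Members and lists were chosen with earlier results of these data known. No test was made, since each list comes from 1 library, and the named genes are those with the highest and lowest scores, the widest H3K4me3 region, a missing list or a germ cell role. Copies, pairs, sequence examples and a few other examples were chosen after their values were seen. The 3 input samples were not analysed. Other windows, list thresholds, bin joins and member sets were tried, and their effect is given in the closing section. The overlap code was tested on simulated data, where 200 of 200 planted peaks were found. Neither counting intervals nor depth could be given. Python 3.11.15, numpy 2.4.6 and matplotlib 3.10.9 were used.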

Additional observations from a re-analysis of the deposited data

How the results depend on the processing

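No paired analysis was possible because there was only 1 library per profile. The 5 counts of members were recomputed under windows of 500 bp and 2 kb, any transcript start, the start base alone, the midpoint of a peak, the higher-scoring part of the lists, other joining of H3K4me3 bins, protein-coding members, pairs counted once and, chosen after seeing the data, members with mostly single-copy windows. Of 50 recomputed counts, 47 were within 1.5 times the reported one. That number overstates the stability of the counts, since some settings could hardly move them. Other joining of bins cannot change whether a bin lies in the window. The sets of 66, 55 and 59 members or units keep a count near the full set within this bound almost by construction. With the higher-scoring 50% of the H3K27ac and Pax5 lists, 37 members had Pax5 (53.6%), against 22.0% of protein-coding genes. All 3 lists were then present at 32 members (46.4%), against 20.1%, because fewer peaks were left. H3K4me3, which has no score, was not cut. With pairs counted once, the 2 members without a list became 1, by construction. The unknown depth limits every statement on a missing peak.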

Other observations

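Among the genes that lie with the Hist1h genes, 3 of 7 protein-coding genes inside the third group had a list. Hfe, an iron regulator, had H3K27ac (score 51.4) and an H3K4me3 region of 1050 bp, and Slc17a4, a solute carrier, had H3K27ac (50.9) and Pax5 (457). The values at Gm17658 (H3K27ac 111 and Pax5 384) equal those of Hist1h4d, beside whose start it begins. Between the second and the third group lay 38 protein-coding genes, of which 33 are vomeronasal receptor genes. Of the 38, 2 had H3K27ac, 3 H3K4me3 and 2 Pax5, at Zfp322a, Abt1 and Btn1a1. Over the whole stretch from the first Hist1h start to Hist1h2al, 240 other protein-coding genes had H3K27ac at 37.9%, H3K4me3 at 46.2% and Pax5 at 29.6%.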
